A study of Mus musculus with 2 samples.

Results

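The heavy chain variable segments of the mouse immunoglobulin locus, named Ighv, were compared between aortic macrophage libraries of mice with the PDR and the SKYD syndrome. Members were the genes of the deposited table with the biotype IG_V_gene and a name that starts with Ighv, which gave 113 of 54532 genes. The number after Ighv names the subgroup of related segments, and the 113 segments fell into 16 subgroups, of which Ighv1 was the largest with 53. All lie on the minus strand of chromosome 12, over 2.42 Mb from 113578504 to 116000461 of GRCm38.

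The mice were male and ApoE-/- on a C57BL/6J background, a model of raised blood lipids, and the age given for both groups was 6 weeks. Mice of the PDR group received a high-fat diet for 4 weeks. Mice of the SKYD group received the thyroid blocker propylthiouracil for 4 weeks, at 10 mg/kg a day, and a high-fat diet for the next 2 weeks. Aortas were digested with trypsin, cells carrying F4/80 and CD11b were sorted, and the cells of 5 mice were pooled, so that each group had 1 library and no difference given here has a replicate check. In this design the syndrome cannot be told apart from the drug, the diet time or the age at collection.

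Expression was deposited as FPKM (reads per unit of gene length and of library size). Whole reads were recovered from these values and gave a depth of 23086889 reads on genes for PDR and 25427863 for SKYD. Intervals are 95% confidence intervals that cover counting error only, since reads are not independent molecules and mice were pooled. A count of 0 was taken to leave room for at most 3 reads. The labelled cell type is macrophages. All 8 macrophage markers had reads in both libraries, and they took 3.11% of reads in PDR and 5.61% in SKYD. Most of these reads were on Lyz2, with 686737 of 717837 in PDR and 1359594 of 1426595 in SKYD. Adgre1, which encodes F4/80, had an FPKM of 87.3 in PDR and 93.3 in SKYD, and Itgam, which encodes CD11b, had 8.84 and 14.4. Csf1r (57.7 and 44.9) and Fcgr1 (51.9 and 35.3) were higher in PDR, and the other markers were higher in SKYD. All 10 B cell markers also had reads in both libraries, although the sort was not for B cells.

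In a developing B cell, 1 Ighv segment is joined to a D and a J segment to form the variable part of the heavy chain, and the choice differs from cell to cell. A large mixed population therefore uses many segments, whereas cells descended from a single B cell share theirs, and plasma cells carry far more of this RNA than resting B cells. Macrophages do not rearrange this locus.

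Sequences are shown for the segments that led each library or differed most, because many Ighv segments are near copies of each other and reads can be hard to place. Each is the last 300 coding bases of the segment, 5′ to 3′, inside the second exon, from GENCODE M21 transcripts. Capitals mark bases that differ from the closest other Ighv gene or pseudogene, and a base missing from either counts as a difference. Ighv1-20 (ENSMUSG00000095761, chr12:114723772-114724071, minus strand, GRCm38) led the PDR library and differs from Ighv1-37 (ENSMUSG00000095923, chr12:114896238-114896537, minus strand) at 4 of these bases. Ighv1-81 (ENSMUSG00000094689, chr12:115920279-115920578, minus strand) was next in both libraries and its closest relative was Ighv1-85, with 22 differences. Ighv4-1 (ENSMUSG00000076655, chr12:113948282-113948581, minus strand), the single member of its subgroup, led the SKYD library and its closest relative was the pseudogene Ighv4-2, with 13 differences.
Ighv1-20: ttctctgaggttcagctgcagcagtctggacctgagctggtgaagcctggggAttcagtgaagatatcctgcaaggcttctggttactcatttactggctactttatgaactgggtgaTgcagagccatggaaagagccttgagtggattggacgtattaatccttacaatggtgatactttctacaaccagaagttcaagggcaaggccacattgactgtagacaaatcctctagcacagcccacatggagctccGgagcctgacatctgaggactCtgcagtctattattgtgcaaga
Ighv1-37: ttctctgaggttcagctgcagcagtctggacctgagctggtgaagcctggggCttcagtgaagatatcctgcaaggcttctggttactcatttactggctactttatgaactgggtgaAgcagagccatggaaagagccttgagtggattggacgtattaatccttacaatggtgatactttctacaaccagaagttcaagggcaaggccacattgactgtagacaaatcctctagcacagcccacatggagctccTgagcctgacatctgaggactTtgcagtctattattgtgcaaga
Ighv1-81: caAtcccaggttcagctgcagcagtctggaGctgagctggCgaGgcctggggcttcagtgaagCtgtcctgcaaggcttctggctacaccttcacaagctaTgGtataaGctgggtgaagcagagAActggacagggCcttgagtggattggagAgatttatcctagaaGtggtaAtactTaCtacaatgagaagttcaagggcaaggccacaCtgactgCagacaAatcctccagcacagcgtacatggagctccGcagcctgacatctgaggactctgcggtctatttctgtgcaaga
Ighv4-1: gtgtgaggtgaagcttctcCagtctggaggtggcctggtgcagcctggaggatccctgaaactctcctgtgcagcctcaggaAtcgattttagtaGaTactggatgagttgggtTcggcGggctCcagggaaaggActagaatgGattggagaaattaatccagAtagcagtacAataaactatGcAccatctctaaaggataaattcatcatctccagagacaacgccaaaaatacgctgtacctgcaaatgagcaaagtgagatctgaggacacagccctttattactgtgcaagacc

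The segments with the largest differences were also shown, with the same use of capitals. Ighv1-50 (ENSMUSG00000094198, chr12:115119748-115120047, minus strand) was the farthest to the PDR side on log2(FPKM + 1), though not by FPKM ratio. It differs from Ighv1-69 at 9 bases. Ighv3-5 (ENSMUSG00000076670, chr12:114262652-114262951, minus strand) and Ighv7-1 (ENSMUSG00000076665, chr12:113896408-113896707, minus strand) were the farthest to the SKYD side. They are less like other members, with 39 differences from the pseudogene Ighv3-2 and 34 from Ighv7-3.
Ighv1-50: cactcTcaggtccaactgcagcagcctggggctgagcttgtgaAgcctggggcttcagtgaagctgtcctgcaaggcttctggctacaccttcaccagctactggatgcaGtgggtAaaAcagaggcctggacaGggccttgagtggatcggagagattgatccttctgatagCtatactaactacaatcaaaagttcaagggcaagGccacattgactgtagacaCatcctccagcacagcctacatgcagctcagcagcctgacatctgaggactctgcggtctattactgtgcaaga
Ighv3-5: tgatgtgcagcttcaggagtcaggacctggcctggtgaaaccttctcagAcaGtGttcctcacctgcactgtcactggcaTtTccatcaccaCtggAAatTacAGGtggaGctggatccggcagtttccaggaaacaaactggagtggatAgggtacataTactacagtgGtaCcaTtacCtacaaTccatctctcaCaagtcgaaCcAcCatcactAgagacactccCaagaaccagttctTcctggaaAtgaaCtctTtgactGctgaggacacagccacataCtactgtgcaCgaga
Ighv7-1: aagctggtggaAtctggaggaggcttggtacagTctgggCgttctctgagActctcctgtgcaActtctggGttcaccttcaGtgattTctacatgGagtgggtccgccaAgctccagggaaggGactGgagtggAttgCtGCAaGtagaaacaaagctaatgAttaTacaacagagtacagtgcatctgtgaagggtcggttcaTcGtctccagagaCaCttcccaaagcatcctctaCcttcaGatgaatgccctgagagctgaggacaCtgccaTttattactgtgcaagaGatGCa

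Ighv reads were a larger part of the PDR library, but per read on B cell markers the order depended on the markers chosen. They numbered 99195 in PDR, 0.430% of reads on genes (95% CI 0.427 to 0.432), and 25365 in SKYD, 0.0998% (95% CI 0.0985 to 0.101), a ratio of 4.31 (95% CI 4.25 to 4.37). This order turned on each scale of B cell markers that held Ms4a1, and the scales without that gene went both ways. Per read on the list of 10 B cell markers the ratio was 0.805, with 1.11 Ighv reads in PDR and 1.38 in SKYD. By single gene it was 1.27 for Cd79a and 0.872 for Cd79b, which carry the signal of the B cell receptor, and 0.478 for Ms4a1, a B cell surface protein. For these 3 together it was 0.829. Without Ms4a1, whose share of reads was 9.02 times as large in PDR, the list gave 0.958, and Cd79a and Cd79b together gave 1.04. On summed FPKM Cd79a, Cd79b and Ms4a1 were 4.28 times as high in PDR and Ighv 4.24 times, a ratio of 0.989. These scales were chosen after seeing the data. Per read on other B lineage genes the order did not turn, with 0.607 in PDR and 0.184 in SKYD for Ighm, 0.142 and 0.0737 for Igkc and 0.676 and 0.168 for Jchain. Fewer B lineage cells and less Ighv RNA per cell cannot be told apart in pooled bulk libraries, and the part of B cell content in the result was not tested.

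Of the 113 segments, 15 had 0 reads in both libraries and another 15 had reads but a mean FPKM under 1. The other 83 were compared on log2(FPKM + 1) as PDR minus SKYD, a scale that understates differences of low genes. More than 2-fold higher in PDR were 45, which is 54.2% of the 83, against 7.38% of all 10399 genes compared in this way, and 15 were more than 2-fold higher in SKYD, 18.1% against 6.91%. The remaining 23 lay within 2-fold. A segment that passes the filter through a single library has to differ, and 20 of the 83 had at most 3 reads in one library, 15 of them in SKYD and 5 in PDR. Among the 63 segments with more than 3 reads in both, 30 were higher in PDR, 10 in SKYD and 23 within 2-fold. The median difference was 1.70 over the 83 (1.66 with 0 reads set to 3), 0.69 over all 113 and -0.0035 over all genes compared. Centring on the median of the B cell markers, which shifts all genes by 2.22, turned the split to 20 higher in PDR and 39 higher in SKYD.

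**Figure D1:**
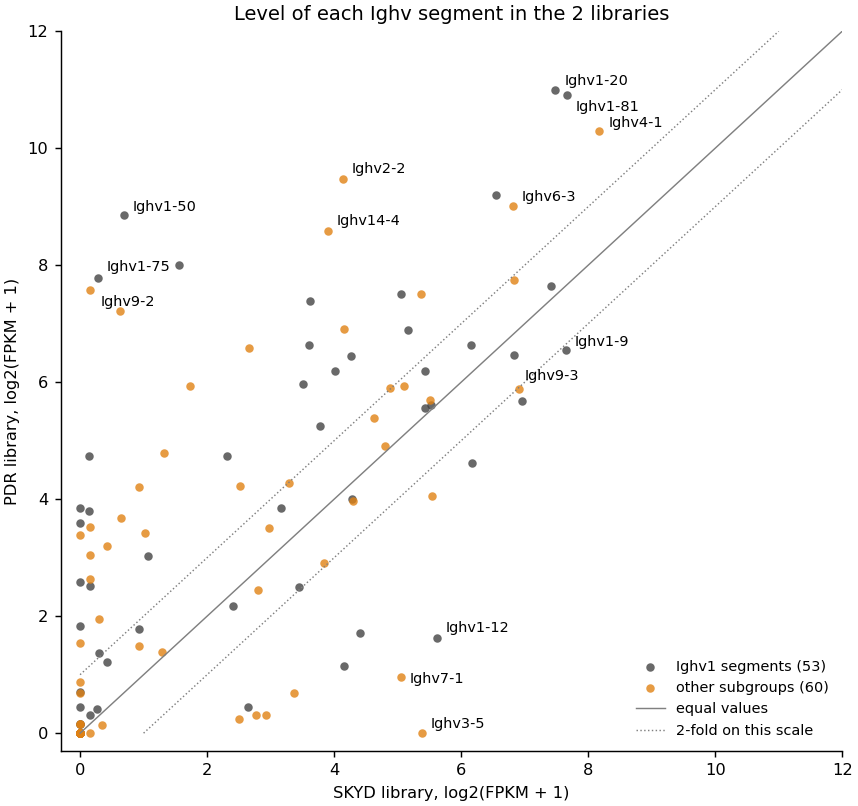
Each point is 1 of the 113 Ighv segments, with log2(FPKM + 1) in the SKYD library on the x axis and in the PDR library on the y axis, and dotted lines mark 2-fold. Of the 83 compared segments, 45 lie above the upper dotted line and 15 below the lower one, a split that turned to 20 and 39 after centring on B cell markers.

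The difference was not a shift of one common pattern. Taken as shares of the summed Ighv FPKM, 47.3% of use would have to move to turn one library's profile into the other's. By share 51 segments were higher in PDR and 47 in SKYD. This count cannot decide the point, since shares are scaled to the same total in each library. Across the 113 segments, the Spearman correlation of FPKM between the libraries was 0.69, and across the 63 with more than 3 reads in both it was 0.42. These are descriptions of 2 libraries over segments that share the locus and, in part, their sequence.

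In PDR, 3 segments stood above all others. Ighv1-20 had an FPKM of 2036 in PDR and 178 in SKYD, from 16787 and 1562 reads, a log2 difference of 3.51 (95% CI 3.43 to 3.58). Ighv1-81 had 1935 and 201, from 15949 and 1767 reads, a log2 difference of 3.26 (95% CI 3.19 to 3.33). These segments took 17.6% and 16.7% of PDR Ighv FPKM, and 6.52% and 7.38% of that in SKYD, so they led within the family in PDR beyond its higher total. Ighv4-1 was different in this respect. Its FPKM was 1256 in PDR and 288 in SKYD, a log2 difference of 2.12 (95% CI 2.06 to 2.18) that turned to -0.10 when centred on B cell markers, and its share of Ighv FPKM was 10.9% and 10.6%.

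The next 7 segments of the PDR library were uneven in SKYD. Ighv2-2, the second segment from the D end, had 714 in PDR and 16.6 in SKYD, and was at place 4 in PDR and place 35 in SKYD. Ighv14-4 had 384 and 13.9. Ighv1-53 had 588 and 92.4, and Ighv6-3 had 514 and 111, which places them among the first 11 in both libraries. Ighv6-3 turned to -0.02 on the log2 scale when centred on B cell markers, from 2.20. The other 3 had few reads in SKYD. Ighv1-50 had 466 in PDR and 0.616 in SKYD, from 4267 and 6 reads. Ighv1-7 had 256 and 1.96, from 2336 and 19 reads, and Ighv1-75 had 218 and 0.215, from 1910 and 2 reads.

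The largest differences toward PDR came from segments with at most 19 reads in SKYD. The log2 difference was 8.17 for Ighv1-50 (95% CI 7.64 to 8.57), 7.49 for Ighv1-75 (95% CI 6.94 to 7.74) and 7.43 for Ighv9-2 (95% CI 6.87 to 7.58), which had 1572 reads in PDR and 1 in SKYD. Ighv5-15 followed with 6.59 (1258 and 5 reads) and Ighv1-7 with 6.44. As FPKM ratios these are 757 for Ighv1-50 (95% CI 347 to 2063) and 268 for Ighv5-15 (95% CI 114 to 826), and the largest is 1673 for Ighv9-2 (95% CI 300 to 66112). Ighv1-75 had a ratio of 1016 (95% CI 281 to 8397), and such intervals show how little the few SKYD reads fix the size or the order of these ratios. Of the segments with 0 reads in SKYD, Ighv1-49, with 110 reads in PDR, was at least 39.0-fold higher there when 0 is taken as 3 reads (exact 95% lower limit 31.2) and Ighv1-77, with 105 reads, at least 37.2-fold (lower limit 29.8). These 2 segments were named after their values were seen.

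In SKYD the first 10 segments were Ighv4-1, Ighv1-81, Ighv1-9, Ighv1-20, Ighv1-64, Ighv1-55, Ighv9-3, Ighv8-8, Ighv1-80 and Ighv6-3. Ighv1-9 had an FPKM of 200 in SKYD and 92.8 in PDR, a log2 difference of -1.10 (95% CI -1.22 to -0.98). Ighv1-55 had 123 and 50.1, a difference of -1.28, and Ighv9-3 had 119 and 57.9, a difference of -1.03. These 3 were more than 2-fold higher in SKYD although Ighv as a whole had fewer reads there. For Ighv1-9 and Ighv9-3 (95% CI -1.19 to -0.88) the interval also held differences under 2-fold. Ighv1-64 (169 in SKYD, 199 in PDR), Ighv1-80 (112 and 87.2) and Ighv8-8 (113 and 213) lay within 2-fold. As shares of Ighv FPKM, Ighv1-9 took 7.32% in SKYD and 0.802% in PDR, and Ighv1-64 took 6.19% and 1.72%.

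The largest differences toward SKYD on log2(FPKM + 1) had moderate levels. Ighv3-5 had 0 reads in PDR, which allows up to 0.00302% of Ighv reads, and 359 in SKYD at an FPKM of 40.7, a level at least 112-fold that in PDR when 0 is taken as 3 reads (exact 95% lower limit 91.0). Ighv7-1 had 8 and 292 reads, an FPKM ratio of 34.3 toward SKYD (95% CI 17.2 to 80.2). Ighv1-12 had 19 and 464 reads, a ratio of 22.9 (95% CI 14.5 to 38.5). Ighv1-58 (10 and 148 reads) and Ighv1-5 (21 and 199 reads) had log2 differences of -3.01 and -2.70. None of these 5 reached 2% of Ighv FPKM in SKYD, where Ighv1-12 had 1.76% and Ighv3-5 had 1.49%. By FPKM ratio the order differed. Ighv3-4 (27.3), Ighv11-2 (25.4) and Ighv2-9 (24.9), each with 2 reads in PDR, lay above Ighv1-12. Ighv3-1 (15.4) and Ighv1-85 (14.4) lay above Ighv1-58 (13.9).

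Use was more concentrated in PDR over all segments. The effective number of segments, the number of equally used segments that would give the same concentration (inverse Simpson index), was 11.7 in PDR (95% CI 11.6 to 11.8) and 22.2 in SKYD (95% CI 21.8 to 22.6). The exponential of the Shannon entropy, which gives rare segments more weight, was 21.5 and 32.2. The first 3 segments held 45.2% of Ighv FPKM in PDR and 25.3% in SKYD, and the first 10 held 72.3% (95% CI 72.0 to 72.6) and 59.2% (95% CI 58.6 to 59.8). It took 4 segments to reach 50% in PDR and 8 in SKYD, and 25 and 31 to reach 90%. Without the segments at least 90% identical to another, which left 1.10% of Ighv FPKM in PDR and 6.49% in SKYD, the measures disagreed. The inverse Simpson number (3.89 and 5.42) and the first segment (47.4% and 27.2%) kept this order, and the Shannon number (7.12 and 6.66), the first 5 (79.3% and 89.2%) and the first 10 (92.4% and 98.8%) turned it.

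**Figure D2:**
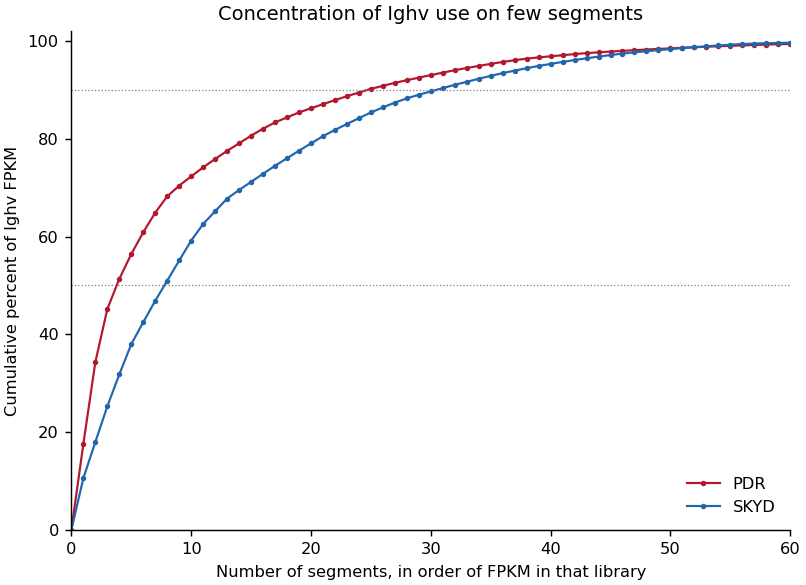
Cumulative percent of Ighv FPKM (y axis) over the segments in order of their FPKM within each library (x axis), with dotted lines at 50% and 90%. The PDR curve crosses 50% at 4 segments and the SKYD curve at 8.

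The number of segments seen did not follow this order. PDR had reads on 96 segments and SKYD on 84, and 84 and 68 had more than 3 reads. At the lower number of 25365 Ighv reads, 87.8 segments were expected to be seen in PDR, against 84 in SKYD. At that number the PDR library thus held slightly more segments, beside its few leading ones. Over the segments outside Ighv1, at 10345 reads, 42.6 were expected in PDR against 43 in SKYD. The leading segments were partly shared, with 3 in the first 5 of both libraries, 4 in the first 10 and 8 in the first 20. The first 10 of PDR held 33.2% of use in SKYD, whereas the first 10 of SKYD held 55.7% in PDR. Within Ighv1 the effective number was 5.91 in PDR and 13.4 in SKYD, and over the other 60 segments it was 7.15 and 8.84, so the libraries were further apart within Ighv1.

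By subgroup, Ighv1 took the largest share in both libraries when all segments were counted. It took 62.2% of Ighv FPKM in PDR (95% CI 61.9 to 62.5) and 59.9% in SKYD (95% CI 59.3 to 60.5), and its summed FPKM was 4.40 times as high in PDR, against 4.28 for the 3 B cell markers. Without the leading segment of each library the order of the shares turned, to 62.3% and 64.3%. Of its 41 compared segments 23 were higher in PDR and 7 in SKYD, and of the 42 in the other subgroups 22 and 8. Ighv4 and Ighv6 also had like shares, with 5.48% in PDR and 4.69% in SKYD for Ighv6. Ighv5, a subgroup rich in segments near the D end, had 3.73% and 4.27%. Without the leading segments this order also turned, to 5.21% and 5.15%.

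Ighv2 and Ighv14 took larger shares in PDR. Ighv2 had 7.08% in PDR (95% CI 6.92 to 7.24) and 2.36% in SKYD (95% CI 2.17 to 2.55), and Ighv2-2 alone made up 87.1% of its PDR value. In SKYD the first of the subgroup was Ighv2-3, with 44.0%. Ighv14 had 3.70% (95% CI 3.58 to 3.82) and 0.819% (95% CI 0.706 to 0.933), with Ighv14-4 as 89.6% of it in PDR and 62.2% in SKYD. A subgroup's share in these libraries thus often came from a single member. The FPKM ratio was 12.7 for Ighv2 and 19.2 for Ighv14, both larger than the 4.28 of the 3 B cell markers.

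Ighv7, Ighv10, Ighv3, Ighv8 and Ighv9 took larger shares in SKYD. Ighv7 had 0.450% in PDR (95% CI 0.408 to 0.492) and 2.83% in SKYD (95% CI 2.62 to 3.03), and Ighv10 had 0.184% and 1.18%. Their summed FPKM was higher in SKYD, by 1.48-fold and 1.51-fold. For Ighv7 this rested on Ighv7-1, since Ighv7-3 had 51.1 in PDR and 44.7 in SKYD. Ighv10-1 had 14.7 and 18.7. Ighv3 had 1.61% and 3.78%, or 1.68% and 2.10% over segments with more than 3 reads in both libraries, and its members parted. Ighv3-6, with 181 in PDR and 40.5 in SKYD, made up 96.8% of the subgroup in PDR, while Ighv3-5 was the first in SKYD. The difference of Ighv3-6 was 2.13, and -0.09 when centred on B cell markers. Ighv8 had 2.26% and 5.01%, with Ighv8-8 as 81.6% of it in PDR and 82.5% in SKYD. Ighv9 had 2.38% and 4.41%, from Ighv9-2 in PDR, with 191 and 0.114, and from Ighv9-3 in SKYD. Over segments with more than 3 reads in both libraries Ighv9 had 0.684% and 4.51%.

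**Figure D3:**
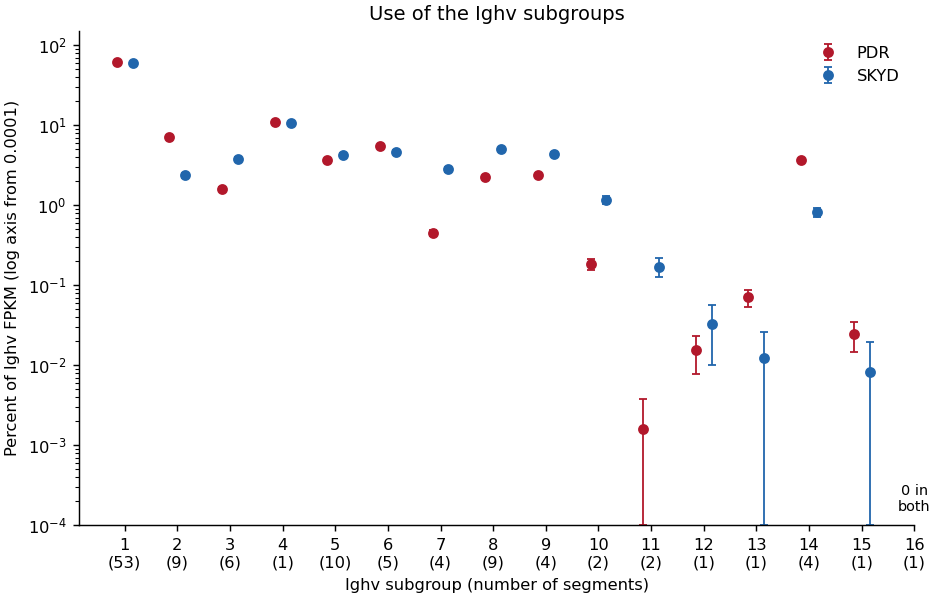
Percent of summed Ighv FPKM (log axis) on each Ighv subgroup in the PDR and SKYD libraries, with the number of segments in brackets and bars for the 95% counting interval, which end at the axis where the lower limit is below it. As shares of Ighv FPKM, Ighv2, Ighv14 and the small Ighv13 and Ighv15 are higher in PDR. Ighv3, Ighv7, Ighv8, Ighv9, Ighv10 and the small Ighv11 are higher in SKYD. Reads in PDR and SKYD were 69 and 3 for Ighv13, 24 and 2 for Ighv15 and 2 and 54 for Ighv11, and the intervals of Ighv15 overlap. Ighv12, with 15 and 8 reads, and subgroups nearer to equal, such as Ighv1, Ighv5 and Ighv6, are not listed.

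The small subgroups hold segments with a known use. Ighv11-2 and Ighv12-3 are used by B-1 cells that bind phosphatidylcholine, and Ighv7-1 encodes T15 antibodies, which bind phosphorylcholine and oxidised low-density lipoprotein. Ighv11-2 had 2 reads in PDR and 54 in SKYD, a ratio of 25.4 toward SKYD (95% CI 6.69 to 215), and Ighv12-3 had 15 and 8 reads, a PDR over SKYD ratio of 2.0 (95% CI 0.794 to 5.43), a difference that was not detectable at this depth. Ighv1-72, known from the C57BL/6 response to the hapten NP, had 97.9 and 11.2, a log2 difference of 3.02 (95% CI 2.75 to 3.29). Over the last 300 coding bases Ighv1-72 differs from Ighv1-62-3 (6 reads in PDR and 0 in SKYD) at 3 bases. Ighv11-2 differs from Ighv11-1 (0 reads in both) at 4, so the placing of reads on these segments is uncertain. Ighv5-2, the segment nearest to the D segments and often used early in B cell development, had 98 and 5 reads. The single compared members of Ighv13 and Ighv15 were low and higher in PDR, Ighv13-2 with 69 and 3 reads and Ighv15-2 with 24 and 2, and the log2 difference of Ighv15-2 turned from 1.66 to -0.56 when centred on B cell markers. Ighv16-1 had 0 reads in both.

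Use was spread along the whole locus in both libraries. The segments were put in order from the D segments and split into 4 groups of 28 or 29. The group next to the D segments, which holds no Ighv1 segment, took 22.1% of Ighv FPKM in PDR (95% CI 21.8 to 22.3) and 19.2% in SKYD (95% CI 18.7 to 19.7). The second group took 16.6% and 24.1%, the third 33.2% and 25.7%, and the most distant 28.1% and 31.0%. Without the leading segment of each library the order turned for the third group, to 21.8% and 23.1%, and for the most distant, to 39.3% and 37.4%. With groups of equal length the third took 14.8% and 15.3%, which also turned. Without the segments at least 90% identical to another the third turned as well, to 17.8% and 27.8%. That setting left 1.10% of Ighv FPKM in PDR and 6.49% in SKYD. In PDR a single segment led each group, namely Ighv4-1, Ighv6-3, Ighv1-20 and Ighv1-81, and in SKYD Ighv1-9 took the place of Ighv6-3.

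**Figure D4:**
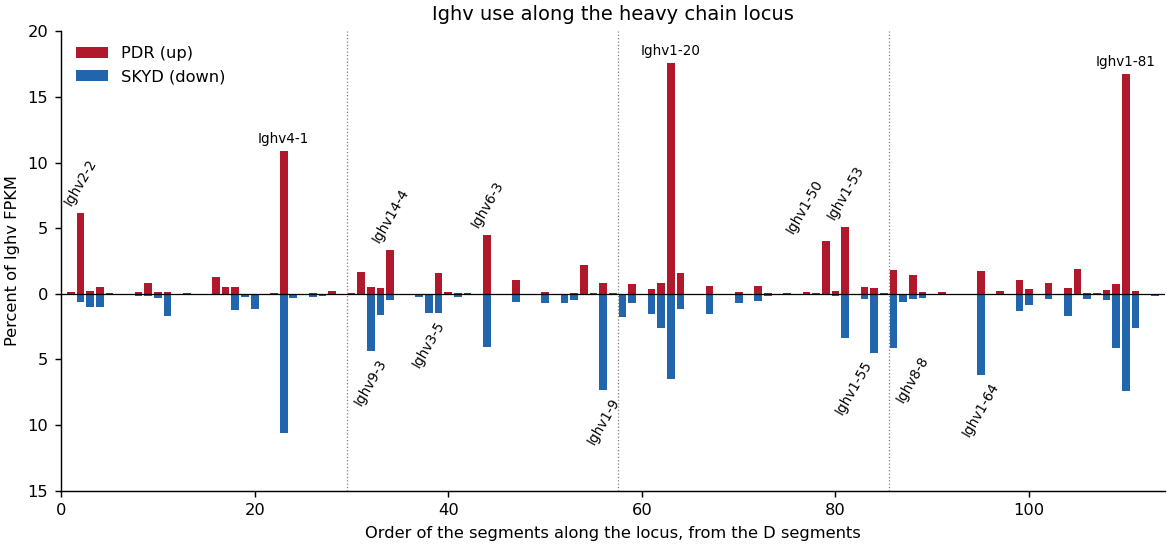
Percent of Ighv FPKM (y axis) of each of the 113 segments in order along the locus from the D segments (x axis), with PDR bars up, SKYD bars down and dotted lines between the 4 groups. Ighv1-20, Ighv1-81 and Ighv4-1 stand out in PDR, and in SKYD Ighv4-1 is the longest bar with 10.6%.

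Near copies limit how far reads can be placed. Over the last 300 coding bases, 90 of the 113 segments were at least 90% identical to another Ighv gene or pseudogene and 66 at least 95%. Of the 15 segments with 0 reads in both libraries, 11 were at least 90% identical to another, and their median identity was 96.0% against 95.3% for the segments with reads. How the authors' counting treated reads that fit several places is not given in the sources used here. Leaving out all 90 left 16 compared segments, 7 higher in PDR and 6 in SKYD. As only 1.10% of Ighv FPKM in PDR and 6.49% in SKYD remained, shares of this remainder follow a few segments. Ighv1 took 26.1% and 49.3% of it, and Ighv5 56.7% and 1.63%, of which Ighv5-16 alone, with 539 reads in PDR, was 47.4% of all in PDR. Reads were nonetheless uneven between near copies. Ighv1-20 had 16787 reads in PDR and Ighv1-37, its near copy, had 21 in PDR and 0 in SKYD. Ighv1-62-2 and Ighv1-71 are identical over the 300 bases and had 115 and 1 reads in PDR, so the value of each is uncertain. Ighv2-2 (ENSMUSG00000096464, chr12:113588267-113588566, minus strand, GRCm38) had 5903 reads in PDR and 146 in SKYD, while Ighv2-4 (ENSMUSG00000095866, chr12:113653291-113653590, minus strand), which differs from it at 6 bases (capitals), had 0 in both.
Ighv2-2: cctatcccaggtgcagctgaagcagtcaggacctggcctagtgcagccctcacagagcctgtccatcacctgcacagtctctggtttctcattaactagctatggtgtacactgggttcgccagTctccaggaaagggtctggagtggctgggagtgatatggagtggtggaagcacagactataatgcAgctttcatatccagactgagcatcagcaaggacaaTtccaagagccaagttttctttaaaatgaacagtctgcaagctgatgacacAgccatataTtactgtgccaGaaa
Ighv2-4: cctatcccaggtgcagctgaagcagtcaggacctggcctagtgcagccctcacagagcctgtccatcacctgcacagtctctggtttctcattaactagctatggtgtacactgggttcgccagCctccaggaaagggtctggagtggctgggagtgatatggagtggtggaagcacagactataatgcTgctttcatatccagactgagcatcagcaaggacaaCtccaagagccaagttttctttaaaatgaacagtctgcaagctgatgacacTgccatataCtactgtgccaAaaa

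Other genes of the B lineage were compared beside the segments. Of the 10 B cell markers 8 passed the filter, and 8 of 8 were more than 2-fold higher in PDR. Their median was 2.22, and the list took 0.388% of reads in PDR and 0.0725% in SKYD. Cd79b, the most abundant, had an FPKM of 802 in PDR and 168 in SKYD, and Pax5, which defines B cell identity, had 29 and 18 reads. Plasma cell genes moved less, with 3 of 7 higher in PDR, 0 in SKYD and a median of 0.95. Jchain, which joins IgM and IgA into polymers, had 2483 and 2403, while Mzb1 had 612 and 116 and Xbp1 250 and 211. Of 5 compared germinal centre genes, 3 were higher in PDR (median 1.35, and 0.70 over all 6). Fas had 60.8 and 58.7 and Gcsam 7.25 and 1.81. Of 6 compared B-1 cell genes, Zbtb32 (18.2 and 4.31) was higher in PDR and Cd5 (5.23 and 17.1), also a T cell gene, in SKYD, with a median of -0.11. The most abundant of that list was Cd9, with 138 and 253.

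Early B cell genes were mixed, with 1 of 6 higher in PDR and 4 in SKYD and a median of -1.71 (-1.70 with 0 reads set to 3). The size of this median depended on the settings, with -0.66 over all 10 genes and -3.49 at a pseudocount of 0.1. Dntt had 0.780 in PDR and 206 in SKYD, Vpreb3 had 33.0 and 2.98, and Rag2 had 0 and 2262 reads. The 4 higher in SKYD were Dntt, Rag2, Rag1 and Cd93. Vpreb3 was higher in PDR, as was Ebf1, which was under the filter with 174 and 67 reads. Dntt, Rag1 and Rag2 also act in developing T cells, and all 7 T cell genes were more than 2-fold higher in SKYD, with a median of -2.41. Over all genes compared, 6.91% were more than 2-fold higher in SKYD and 7.38% in PDR. The T cell genes took 0.0366% of reads in PDR and 0.249% in SKYD. Cd8b1, the most abundant, had 39.7 and 535, Cd3d had 42.3 and 221 and Trac 63.7 and 187. Igll1 and Vpreb1, which form the surrogate light chain with which early B cells first display a heavy chain, had few reads. Igll1 had 0 in PDR and 15 in SKYD, Vpreb1 had 2 and 24, and Vpreb2 had 0 in both. Neutrophil genes had a median of 1.14, with 3 of 5 higher in PDR, and S100a9 had 2209 and 1677. Of the 8 macrophage genes 0 were higher in PDR and 1, Cd14 (149 and 938), in SKYD, with a median of -0.58. The part of these other cell types in the Ighv values was not tested.

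The rest of the antibody transcript was also compared. Heavy chain constant genes took 2.94% of reads in PDR and 0.842% in SKYD, a ratio of 3.49 (95% CI 3.47 to 3.51), with 5 of 7 compared genes higher in PDR and a median of 2.87. Ighv reads were 14.6% as many as constant reads in PDR and 11.8% in SKYD. The isotypes were unequal. Ighm, the IgM gene, had an FPKM of 3689 and 2917 and made up 28.1% of constant FPKM in PDR and 70.8% in SKYD, while the IgG genes together made up 67.8% and 16.6%. Ighg2b had 6154 and 542, Ighg2c 2390 and 97.1, Ighg3 301 and 40.3 and Ighg1 69.1 and 3.13. Igha had 443 and 507, Ighd 93.7 and 12.5, and Ighe, with 6 and 4 reads, was under the filter. The 4 Ighj segments had 65 reads in PDR and 14 in SKYD, and 3 of 4 were higher in PDR (median 1.92). These 3 had few reads in SKYD, namely Ighj4 (25 and 3 reads), Ighj3 (20 and 3) and Ighj2 (9 and 2). The FPKM ratio of Ighj2 was 4.79 (95% CI 0.991 to 45.5), so its difference was not detectable at this depth. Of 4 light chain constant genes 3 were higher in PDR (median 1.23), and Igkc had 55958 and 25889.

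**Figure D5:**
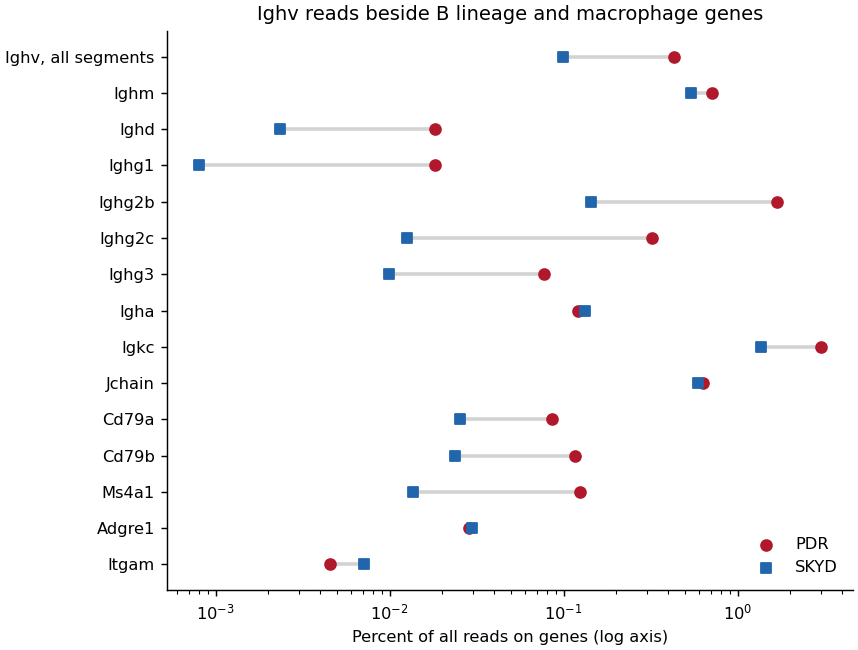
Percent of all reads on genes (x axis, log scale) on the 113 Ighv segments together, on constant, joining chain and B cell genes and on the macrophage genes Adgre1 and Itgam, with a circle for PDR and a square for SKYD. Ighv lies at 0.430% in PDR and 0.0998% in SKYD. Per read on Cd79a, Cd79b and Ms4a1, a scale chosen after seeing the data, the order turns, with a ratio of 0.829. The ratio is 1.04 without Ms4a1, and by single gene 1.27 for Cd79a, 0.872 for Cd79b and 0.478 for Ms4a1.

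The kappa light chain variable segments, which recombine on another chromosome, had a like shape. Of 100 Igkv segments 81 were compared, and 41 of the 81 lay past 2-fold toward PDR and 14 toward SKYD. Among all 10399 genes compared in this way, 7.38% lay past 2-fold toward PDR and 6.91% toward SKYD. The effective number of Igkv segments was 11.3 in PDR (95% CI 11.2 to 11.4) and 18.6 in SKYD (95% CI 18.4 to 18.8), against 11.7 and 22.2 for Ighv. The first Igkv segment was the same in both libraries, with 21.9% of use in PDR and 16.9% in SKYD, whereas the first Ighv segment differed.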

How the data were processed

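RNA of sorted aortic macrophages, pooled from 5 mice per group, was sequenced as 1 PDR and 1 SKYD library. The authors aligned the reads with TopHat2 2.0.9 and Bowtie2 2.0.6, counted them on genes with HTSeq 0.6.1, as far as the submitters' notes say, and deposited FPKM for 54532 genes. The labels name mm9, but the deposited positions of 113 of 113 Ighv segments, and of 98.3% of 54409 shared genes, are those of GENCODE M21 on GRCm38, which was used for positions and sequences.

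Reads were recovered as whole multiples of the smallest step of FPKM times gene length (tolerance 0.01 reads), for 100% of the 17738 and 20499 genes above 0 in PDR and SKYD. The limit of 3 reads for a count of 0 is an FPKM of 0.362 in PDR and 0.340 in SKYD at the median segment length of 353 bases. Differences are log2(FPKM + 1), PDR minus SKYD, where the mean FPKM was 1 or more, and differences over 2-fold were counted. Use is the share of summed Ighv FPKM. Intervals of shares of use and of effective numbers are from the delta method on read counts, those of ratios and of shares of reads are exact (Clopper-Pearson), and expected segments at fewer reads are from hypergeometric rarefaction. Identity was aligned over the last 300 coding bases with edlib 1.3.9.post1. No test between groups was possible with 1 library each.

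Named segments were the first 10 by FPKM in each library, the 5 with the largest difference each way, the leading segment of each subgroup, and Ighv5-2, Ighv2-2, Ighv7-1, Ighv11-2, Ighv12-3 and Ighv1-72. Of each gene list at most 3, by highest mean FPKM, were to be named, and all heavy chain constant genes; some genes are not reported here. Any other gene was picked once its values were known. The members and lists were chosen with earlier results of these data known. Alternatives were pseudocounts of 0.1 and 0.01, no filter, a mean FPKM of at least 5, a 4-fold threshold, TPM, 2 centrings, shares of reads, pseudogenes included, the leading or near-identical segments left out, and segments with more than 3 reads in both libraries, and, chosen after seeing the data, Ighv per Cd79a, Cd79b and Ms4a1, singly and together, and per the B cell list. Steps were tested on simulated data, with scipy 1.17.1, pandas 2.3.3, numpy 2.4.6, matplotlib 3.10.9 and Python 3.11.15.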

Additional observations from a re-analysis of the deposited data

Results flagged for a closer look

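Outside the 113 segments, 70 Ighv pseudogenes in the table had 205 reads in PDR and 32 in SKYD, above the limit of 3 reads that a count of 0 allows. Of these, 59 had 0 reads in both libraries, and Ighv1-41 had 155 reads in PDR and 4 in SKYD.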

How the results depend on the processing

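No paired analysis was possible because each group has 1 library, so the values carry no spread between mice. The ratio of Ighv shares was 4.31, and 3.71 without the leading segment of each library. It was 0.805 per read on the B cell list and 0.958 without Ms4a1 in it, 1.27 on Cd79a, 0.872 on Cd79b, 0.478 on Ms4a1, 0.829 on these 3, 1.04 on Cd79a with Cd79b, and 0.989 on summed FPKM of the 3. These scales were chosen after seeing the data, in place of a planned set of B cell markers that was left out of the final run. Centred on the B cell markers, 20 segments lay over 2-fold higher in PDR and 39 in SKYD, and the log2 differences of Ighv15-2, Ighv3-6, Ighv4-1 and Ighv6-3 turned to -0.56, -0.0855, -0.0973 and -0.0172, and those of Ighv1-64, Ighv7-3, Ighv8-8 and Ighv12-3, within 2-fold before, to -1.98, -2.03, -1.30 and -1.66. The cause was not tested. Under the other alternatives for the counts, except that without near-identical segments, 36 to 50 segments were higher in PDR and 10 to 17 in SKYD. Leaving only segments with more than 3 reads in both libraries, which was not among the alternatives planned for the counts, gave 30 and 10.

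The following give PDR and then SKYD. Without segments at least 90% identical to another, which left 1.10% and 6.49% of Ighv FPKM, 7 and 6 were more than 2-fold higher, fewer segments being left, Ighv1 took 26.1% and 49.3%, the effective number was 3.89 and 5.42, the first 10 held 92.4% and 98.8%, and the group farthest from the D segments took 2.86% and 10.04%. By share of reads, Ighv1 took 61.3% and 59.2%, the effective number was 11.9 and 21.5, and the farthest group took 27.7% in PDR. Without the leading segment of each library, the effective number was 12.02 and 23.2, the first 10 held 66.3% and 58.0%, and in a turned order the farthest group took 39.3% and 37.4% and Ighv1 62.3% and 64.3%. With more than 3 reads in both libraries, Ighv1 took 62.5% and 61.1%, the effective number was 10.7 and 21.3, the first 10 held 75.8% and 60.6%, and the farthest group took 27.1% in PDR. The farthest group took 28.6% and 35.5% with pseudogenes and 24.7% and 25.6% with groups of equal length. The third group turned to 14.8% and 15.3% with groups of equal length, and to 17.8% and 27.8% without near-identical segments. The median difference of the B cell list was 2.53 at a pseudocount of 0.1. The inverse Simpson effective number was lower in PDR in all of these alternatives, but without near-identical segments the Shannon number was 7.12 and 6.66 and the first 5 held 79.3% and 89.2%, so that these and the first 10 turned in order. The median of the early B cell list was -3.49 at a pseudocount of 0.1 and -0.66 without the filter, against -1.71. For the main results, 32 values stayed within their limits under the alternatives, 39 moved and 6 were labelled as reversed. The rest were single segments, other lists, the other subgroups, the Shannon number, the first 1 and 5 segments and other groups along the locus. Of these, 208 stayed within their limits, 184 moved and 4 were labelled as reversed.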
